A study of Homo sapiens with 6 samples.

Results

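The 10 genes described here encode the core of Polycomb repressive complex 2 (PRC2; EZH2, EZH1, EED and SUZ12), the DNA methyltransferases DNMT1, DNMT3A and DNMT3B with the maintenance factor UHRF1, and the TET dioxygenases TET2 and TET3. They were chosen by name, and all 10 were found among the 33981 genes of the deposited count table. The study sequenced bulk mRNA of THP-1, a monocytic line that came from an acute myeloid leukemia (AML). A lentiviral vector delivered scrambled shRNA (3 samples, C1, C3 and C4, replicates 1 to 3) or shRNA against the transcription factor NFIC (3 samples, N1, N2 and N3), and GFP-positive cells were sorted 4 days after infection. The knockdown rests on a single hairpin in a single cell line, the cells of both groups carry a GFP vector, and the labels do not say whether replicates are separate transductions, so p-values measure only the spread between these samples. The methods of the study call the control vector GFP only, whereas its results and the labels name scrambled shRNA, which is the name kept here. The results of the study also list a control C2 where the sample titles give C3.

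PRC2 places methyl groups on lysine 27 of histone H3, a mark of silenced developmental genes. EZH2 or its relative EZH1 is the catalytic subunit, and EED and SUZ12 are needed for its activity. DNA methylation is copied at replication by DNMT1, which UHRF1 recruits to hemimethylated DNA, whereas DNMT3A and DNMT3B set it on unmethylated DNA and TET enzymes oxidize it on the way to removal. Mutations of DNMT3A, TET2 and EZH2 recur in myeloid malignancy.

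Total counts were between 20369543 and 24809720 per sample, and 3 counts, taken as the smallest detectable amount, corresponded to at most 0.146 CPM (counts scaled to a library of 1000000). This limit reflects counting error alone, because without molecular identifiers several reads can stem from a single molecule. The targeted gene NFIC was at 42.1, 41.4 and 42.2 CPM in scrambled and at 19.4, 22.3 and 21.4 CPM in NFIC shRNA samples, with no overlap between the groups. All 8 monocytic markers examined were detected. They moved in both directions, 3 higher, 3 lower and 2 not called. Their sum was 1293 to 1419 CPM in scrambled and 1491 to 1671 CPM in NFIC shRNA samples. The mean of LYZ alone went from 572 to 940.0 CPM, a larger rise than that of the mean sum. The other monocytic markers together were thus lower on average with NFIC shRNA. Of markers of other lineages, the 3 erythroid genes measured summed to at most 0.173 CPM and the T-cell gene CD3D reached at most 0.0433 CPM. The B-cell gene CD79B was at 14.7, 16.3 and 15.4 CPM in scrambled and at 11.9, 13.0 and 11.1 CPM in NFIC shRNA samples, and it fell by 0.37 on the log2 scale (edgeR adjusted p = 0.00291). The 5 epithelial or stromal genes summed to 12.3 to 13.5 CPM in scrambled and 4.17 to 5.39 CPM in NFIC shRNA samples, and the part of these markers in the results was not tested.

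With NFIC shRNA, transcripts of 6 of the 10 genes rose, namely EED, DNMT3B, TET2, EZH2, DNMT1 and SUZ12, and none fell. No gene of the 10 was lower at an unadjusted p under 0.05 either, nor by DESeq2 or limma-trend, each of which gave 6 higher and 0 lower. The 4 others, EZH1, DNMT3A, UHRF1 and TET3, did not pass the test. Changes were small: the largest was the 43.0% rise of EED, and the median log2 fold change of the 10 genes was 0.17, against -0.011 over the 19182 genes tested. Calls are from edgeR's quasi-likelihood test at a Benjamini-Hochberg adjusted p under 0.05 over all genes tested. At that threshold 59.9% of all genes were called, 29.6% higher and 30.3% lower, so that the share of the 10 genes called in either direction was that of the whole table. In other settings some of the 10 were called lower: EZH1 and DNMT3A with upper-quartile normalization (adjusted p = 0.0372 and 0.0320), and EZH1 without scrambled replicate 2, without NFIC shRNA replicate 2, without C3 and N3, and with a block by the number in the sample titles. The groups did not overlap in CPM for the same 6 genes, all higher, whereas 65.2% of all genes tested did not overlap, 32.2% higher and 33.0% lower. In bulk samples, more cells expressing a gene and more RNA per cell cannot be told apart.

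**Figure D1:**
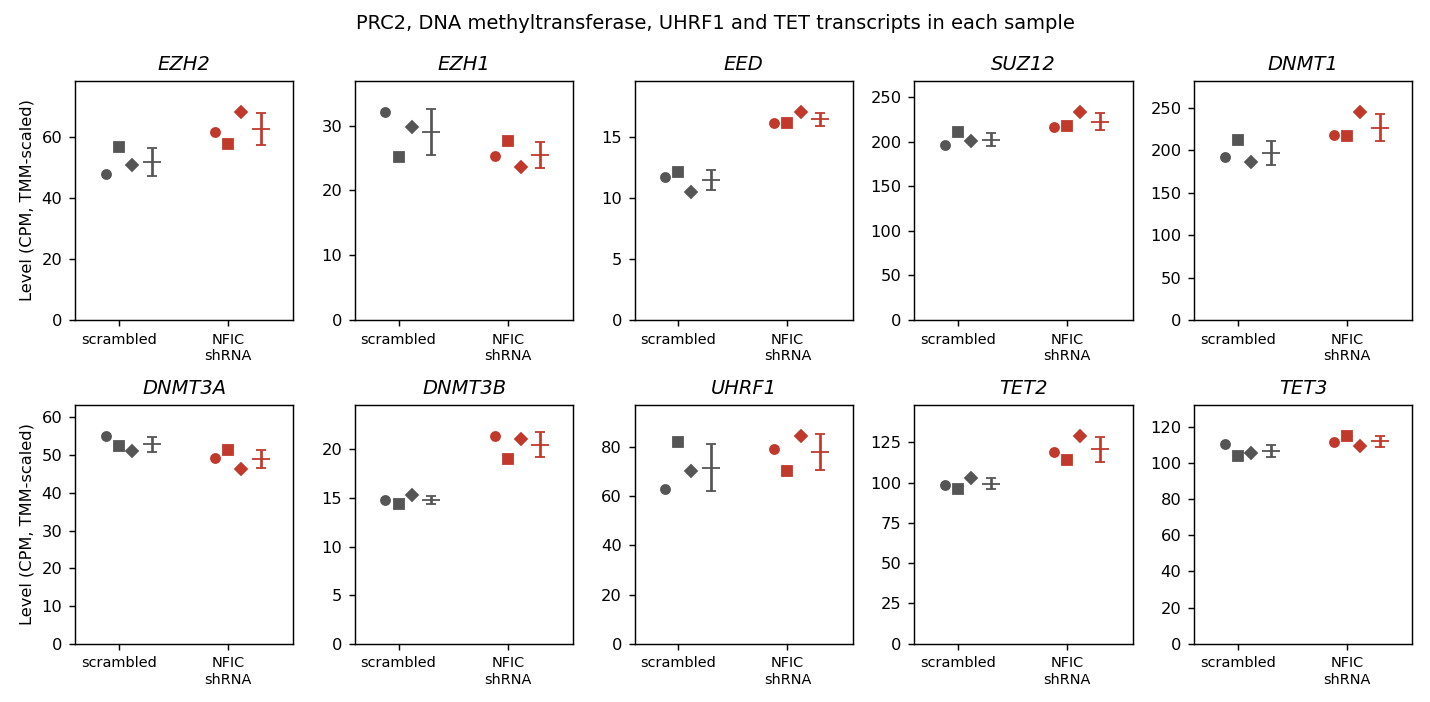
Level of each of the 10 transcripts in each sample (y axes, CPM scaled by TMM factors, starting at 0) for scrambled (grey) and NFIC shRNA samples (red). Circles, squares and diamonds are replicates 1, 2 and 3, and bars show mean ± SD (n = 3); EED and DNMT3B stand clearly apart between the groups, whereas UHRF1 overlaps.

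The promoters of the 10 genes were examined for shared sequence, since EZH2, DNMT1 and UHRF1 are textbook targets of the E2F factors that drive S phase. RefSeq windows on GRCh38.p14, from 250 bases before to 50 bases after a transcription start, were found for all 10 genes, in 20 windows. The E2F letters TTTCCCGC, TTTCGCGC, TTTGCCGC and TTTGGCGC, searched on both strands, were present in a window of 5 genes (EZH2, EZH1, SUZ12, DNMT1 and UHRF1), and in 3.31% of the 35116 promoter windows of all genes. Of these 5 genes 3 were called with NFIC shRNA. The other 3 genes called, EED, DNMT3B and TET2, had no such match in the windows found, which need not cover every start. CCAAT, on either strand, was in a window of 6 genes and in 34.6% of all windows. The NFI letters TTGGCA, on either strand, were in no window of the 10 genes and in 12.5% of all windows. A gene with several windows has more chances of a match than a single window. The windows of the E2F-matched genes EZH2 (chr7:148884242-148884541, minus strand), DNMT1 (chr19:10194904-10195203, minus strand) and UHRF1 (chr19:4909251-4909550, plus strand) are set beside those of EED (chr11:86244503-86244802, plus strand) and DNMT3B (chr20:32779602-32779901, plus strand), with E2F and CCAAT letters in capitals.
EZH2: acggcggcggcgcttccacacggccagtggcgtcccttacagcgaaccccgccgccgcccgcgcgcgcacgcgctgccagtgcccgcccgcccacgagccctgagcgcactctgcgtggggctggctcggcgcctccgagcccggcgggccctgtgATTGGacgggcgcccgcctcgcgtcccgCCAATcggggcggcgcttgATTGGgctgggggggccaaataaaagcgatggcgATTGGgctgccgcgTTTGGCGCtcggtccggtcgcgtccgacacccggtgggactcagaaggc
DNMT1: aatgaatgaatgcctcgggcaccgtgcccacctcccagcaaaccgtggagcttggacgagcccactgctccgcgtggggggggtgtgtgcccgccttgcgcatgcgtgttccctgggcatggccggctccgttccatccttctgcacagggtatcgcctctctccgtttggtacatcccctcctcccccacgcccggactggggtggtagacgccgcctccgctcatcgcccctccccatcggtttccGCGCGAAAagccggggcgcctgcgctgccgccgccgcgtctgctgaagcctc
UHRF1: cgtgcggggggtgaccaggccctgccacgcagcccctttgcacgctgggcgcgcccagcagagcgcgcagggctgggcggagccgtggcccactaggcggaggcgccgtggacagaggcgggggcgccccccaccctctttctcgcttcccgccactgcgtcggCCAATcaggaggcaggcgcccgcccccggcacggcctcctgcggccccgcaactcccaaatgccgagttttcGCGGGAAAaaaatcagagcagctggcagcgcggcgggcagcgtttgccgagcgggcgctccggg
EED: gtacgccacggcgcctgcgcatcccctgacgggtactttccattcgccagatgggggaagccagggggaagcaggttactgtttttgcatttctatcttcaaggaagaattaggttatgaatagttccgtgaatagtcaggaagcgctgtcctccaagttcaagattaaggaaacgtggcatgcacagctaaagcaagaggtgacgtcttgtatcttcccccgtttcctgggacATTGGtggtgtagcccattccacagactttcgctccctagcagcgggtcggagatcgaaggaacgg
DNMT3B: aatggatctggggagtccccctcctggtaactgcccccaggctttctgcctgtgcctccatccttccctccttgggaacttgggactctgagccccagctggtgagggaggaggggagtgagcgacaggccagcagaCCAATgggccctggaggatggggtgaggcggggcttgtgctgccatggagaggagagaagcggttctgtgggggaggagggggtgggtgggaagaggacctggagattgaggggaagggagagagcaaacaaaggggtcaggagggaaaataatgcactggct

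In these windows the E2F letters of EZH2 begin at base 2 of the transcript, those of DNMT1 begin 2 bases before the start, and those of UHRF1 begin 14 bases before it. The EZH2 window also holds 4 CCAAT matches, 3 of them on the opposite strand. The ratio of observed to expected CpG was 1.1 for EZH2, 0.874 for DNMT1, 0.877 for UHRF1 and 0.784 for EED. It was 0.118 for DNMT3B, with 3 CpG sites in the window, against a median of 0.579 over all windows. The DNMT3B window lies inside the gene, which begins at base 32762385 of chromosome 20. Sequence at that end of DNMT3B was not examined, so these values describe an internal start only. The printed windows of DNMT1, UHRF1 and EED also lie inside the gene spans given below. These matches are letters in a window, and binding was not measured.

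Among the PRC2 genes, EED, the subunit that binds trimethylated lysine 27 and stimulates the enzyme, changed most. Its gene (ENSG00000074266) is on chromosome 11 (GRCh38, 86201212 to 86278813). Its level was 11.8, 12.2 and 10.6 CPM in scrambled replicates 1 to 3 and 16.2, 16.2 and 17.1 CPM in NFIC shRNA replicates 1 to 3. Every NFIC shRNA sample was above every scrambled sample, and the distance between the groups exceeded the spread within them. The difference on the log2 scale was 0.52 (SE 0.092, edgeR adjusted p = 1.20e-04), and 36.2% of all genes tested had a larger absolute change.

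EZH2 (ENSG00000106462, chromosome 7, 148807257 to 148884321), the catalytic subunit of proliferating cells, was at 47.9, 56.8 and 51.0 CPM with scrambled shRNA. It was at 61.8, 57.9 and 68.2 CPM with NFIC shRNA. The lowest NFIC shRNA sample lay just above the highest scrambled sample, scrambled replicate 2. The difference on the log2 scale was 0.27 (SE 0.074, edgeR adjusted p = 0.00441). EZH1 (ENSG00000108799, chromosome 17, 42700275 to 42745049), the catalytic subunit that also serves non-dividing cells, was at 32.1, 25.2 and 29.8 CPM with scrambled shRNA, compared with 25.3, 27.7 and 23.6 CPM with NFIC shRNA. The groups overlapped, with scrambled replicate 2 below 2 of the 3 NFIC shRNA samples. Its log2 fold change was -0.18, with a 95% interval from -0.38 to 0.0075 and an adjusted p of 0.0901 from edgeR. Without scrambled replicate 2 the change of EZH1 was -0.28 (adjusted p = 0.0109), and without NFIC shRNA replicate 2 it was -0.24 (adjusted p = 0.0422).

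SUZ12, the scaffold of the complex (ENSG00000178691, chromosome 17, 31937007 to 32001038), was at 196, 211 and 200.3 CPM with scrambled shRNA, compared with 216, 218 and 233 CPM with NFIC shRNA. The groups were apart by a narrow margin, and the difference on the log2 scale was 0.14 (SE 0.051, edgeR adjusted p = 0.0300). The call was lost without scrambled replicate 1 (0.11, adjusted p = 0.149), without scrambled replicate 3 (0.12, adjusted p = 0.108), without NFIC shRNA replicate 3 (0.10, adjusted p = 0.0725) and with upper-quartile normalization (0.079, adjusted p = 0.168). It also depended on how a related transcript was counted. SUZ12P1 (chromosome 17, 30731886 to 30776402), a partial copy of SUZ12 that is transcribed and does not encode the protein, had 1137, 1226 and 1232 counts with scrambled shRNA, against 714, 738 and 721 counts with NFIC shRNA. SUZ12P1 thus fell while SUZ12 rose, with a log2 difference of -0.71 (SE 0.071, edgeR adjusted p = 1.65e-07).

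When the counts of SUZ12 and SUZ12P1 were added, the level was 249, 261 and 258 CPM with scrambled shRNA, against 251, 249 and 264 CPM with NFIC shRNA. The summed groups overlapped, and the log2 fold change was -0.0045 with a 95% interval from -0.11 to 0.098 (adjusted p = 0.943 by edgeR). SUZ12P1 held between 19.1% and 22.3% of the summed counts in the scrambled samples and between 11.8% and 13.8% in the NFIC shRNA samples. In the GENCODE release 44 transcripts, 2.46% of the distinct 100-base words of SUZ12 and 18.1% of those of SUZ12P1 occur in the other gene. That release gave 886 such words for SUZ12P1, and 77.1% of them also occur in a further gene. The length of SUZ12P1 in the deposited table is 3776 bases. The share of the sequence counted as SUZ12P1 that matches SUZ12 was therefore not measured. Whether reads moved between the genes in the counting was not tested.

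**Figure D2:**
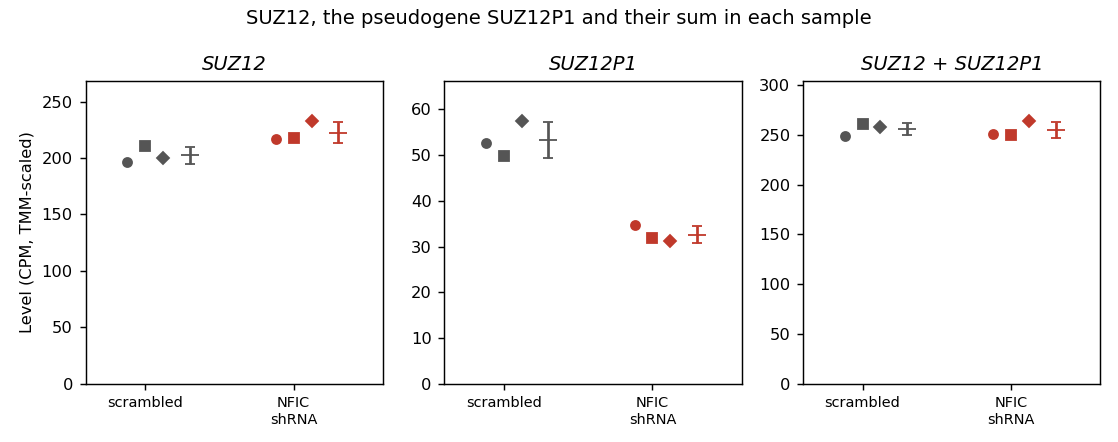
Levels (y axes, CPM scaled by TMM factors, starting at 0) of SUZ12, of its pseudogene SUZ12P1 and of their sum in the scrambled (grey) and NFIC shRNA samples (red); symbols are replicates and bars mean ± SD (n = 3). SUZ12 is higher and SUZ12P1 lower with NFIC shRNA, and the sum overlaps between the groups.

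Among the DNA methylation genes, the de novo enzyme DNMT3B (ENSG00000088305, chromosome 20, 32762385 to 32809359) changed most. It was at 14.8, 14.4 and 15.3 CPM with scrambled shRNA, compared with 21.4, 19.0 and 21.1 CPM with NFIC shRNA, so that the groups were well apart. It rose by 38.2%, a log2 difference of 0.47 (SE 0.085, edgeR adjusted p = 1.37e-04). DNMT3A (ENSG00000119772, chromosome 2, 25227855 to 25342590), the other de novo enzyme, was at 55.1, 52.4 and 51.0 CPM with scrambled shRNA, compared with 49.2, 51.2 and 46.3 CPM with NFIC shRNA. The groups overlapped, and its log2 fold change was -0.11 with a 95% interval from -0.24 to 0.022 (adjusted p = 0.140 by edgeR). With upper-quartile normalization it was -0.17 with an adjusted p of 0.0320.

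The maintenance enzyme DNMT1 (ENSG00000130816, chromosome 19, 10133342 to 10231286) was at 192, 213 and 186 CPM with scrambled shRNA, compared with 219, 217 and 245 CPM with NFIC shRNA. The groups were apart, though scrambled replicate 2 came close to NFIC shRNA replicate 2. DNMT1 rose with a log2 difference of 0.20 (SE 0.061, edgeR adjusted p = 0.00830), which was 0.16 with an adjusted p of 0.0646 without scrambled replicate 3. UHRF1 (ENSG00000276043, chromosome 19, 4903080 to 4962154), which binds hemimethylated CpG sites, was at 62.8, 82.0 and 70.3 CPM with scrambled shRNA, compared with 79.2, 70.3 and 84.6 CPM with NFIC shRNA. Scrambled replicate 2 was above 2 of the 3 NFIC shRNA samples. Its log2 fold change was 0.12, with a 95% interval from -0.078 to 0.32 and an adjusted p of 0.278 from edgeR. Without scrambled replicate 2 the change of UHRF1 was 0.22 (adjusted p = 0.0216). S1PR2, which shares 83 exon bases with DNMT1 on the same strand, had 79 to 88 counts with scrambled and 18 to 22 with NFIC shRNA, few beside the 3986 to 5654 counts of DNMT1. A processed pseudogene, AC112777.1, shares 16.7% of the 100-base words of UHRF1, and it had between 15 and 44 counts per sample.

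TET2 (ENSG00000168769, chromosome 4, 105145875 to 105279816), a frequent target of loss-of-function mutations in myeloid neoplasms, was at 98.5, 96.3 and 103 CPM with scrambled shRNA, compared with 119, 114 and 129 CPM with NFIC shRNA. The groups did not overlap, and TET2 rose by 21.5%, a log2 difference of 0.28 (SE 0.057, edgeR adjusted p = 3.84e-04). TET3 (ENSG00000187605, chromosome 2, 73984910 to 74108176), which has the same activity, was at 110.3, 104 and 105 CPM with scrambled shRNA, compared with 112, 115 and 109 CPM with NFIC shRNA. These values overlapped, and the log2 fold change was 0.072 with a 95% interval from -0.037 to 0.18 (adjusted p = 0.240 by edgeR). A long non-coding RNA, AC073046.1, shares 390 exon bases with TET3 on the same strand and had 83 to 122 counts per sample, against 2258 to 2667 for TET3. TET1, the remaining TET gene, had 11.6, 14.3 and 11.1 CPM with scrambled shRNA against 6.94, 8.45 and 8.23 CPM with NFIC shRNA. It fell by 0.65 on the log2 scale (edgeR adjusted p = 1.89e-04), with no overlap.

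**Figure D3:**
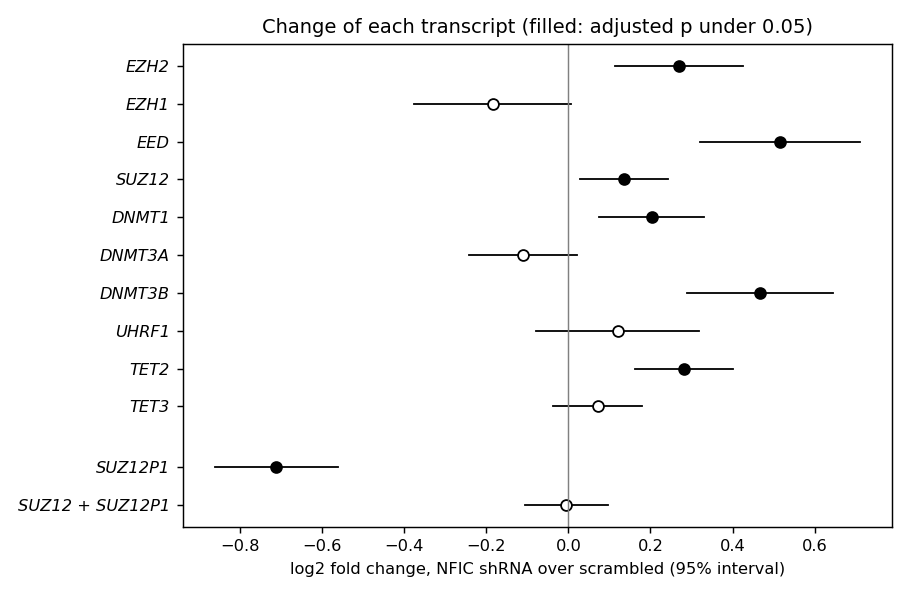
log2 fold change of NFIC shRNA over scrambled samples (x axis) for each of the 10 genes, and below them for SUZ12P1 and for the sum of SUZ12 and SUZ12P1; lines are 95% intervals from the edgeR fit and filled points have an adjusted p under 0.05. The intervals of EZH1, DNMT3A, UHRF1, TET3 and the sum include 0.

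Levels were compared between genes as CPM per kilobase of gene length, using the length in the deposited table. With scrambled shRNA, SUZ12 was highest at 30.9 ± 1.14 CPM per kilobase (SD, n = 3), followed by DNMT1 at 20.1 ± 1.43 and UHRF1 at 13.9 ± 1.88. EZH2 was at 11.5 ± 0.996, TET3 at 8.68 ± 0.276 and TET2 at 6.03 ± 0.210 on the same scale. DNMT3A was at 4.39 ± 0.172, EZH1 at 4.16 ± 0.499, DNMT3B at 3.20 ± 0.0919 and EED at 1.69 ± 0.125. The samples of UHRF1 and EZH2 overlapped, as did those of DNMT3A and EZH1, and other neighbors in this order did not. With NFIC shRNA the order was kept except that DNMT3B, at 4.43 ± 0.274 CPM per kilobase, came before DNMT3A, at 4.07 ± 0.206, and EZH1, at 3.65 ± 0.294. The samples of DNMT3B and DNMT3A overlapped, as did those of DNMT3A and EZH1 and those of UHRF1 and EZH2. This order depends on the lengths used, 12020 bases for DNMT3A and 4630 bases for DNMT3B. Without division by length, DNMT3A stayed above DNMT3B with NFIC shRNA, at a mean of 48.9 against 20.5 CPM. The transcript of EED stayed the lowest of the 10, at 2.42 ± 0.0759 CPM per kilobase.

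Ratios between related enzymes were taken within each sample. Their size depends on the gene lengths used, whereas the log2 difference between the groups does not. The level of DNMT3A over that of DNMT3B, per kilobase, was 1.43, 1.40 and 1.29 with scrambled shRNA, against 0.887, 1.04 and 0.847 with NFIC shRNA. Every NFIC shRNA sample was below every scrambled sample, a mean difference of -0.58 on the log2 scale (p = 0.1, exact permutation test, two-sided, n = 3 in each group). The ratio of EZH1 over EZH2 was 0.433, 0.288 and 0.378 with scrambled shRNA, against 0.265, 0.309 and 0.224 with NFIC shRNA. These overlapped, with a mean difference of -0.45 on the log2 scale (p = 0.2, exact permutation test, two-sided, n = 3 in each group). The smallest p this design allows is 0.1, and after Benjamini-Hochberg adjustment over the 2 ratios both were at 0.2.

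**Figure D4:**
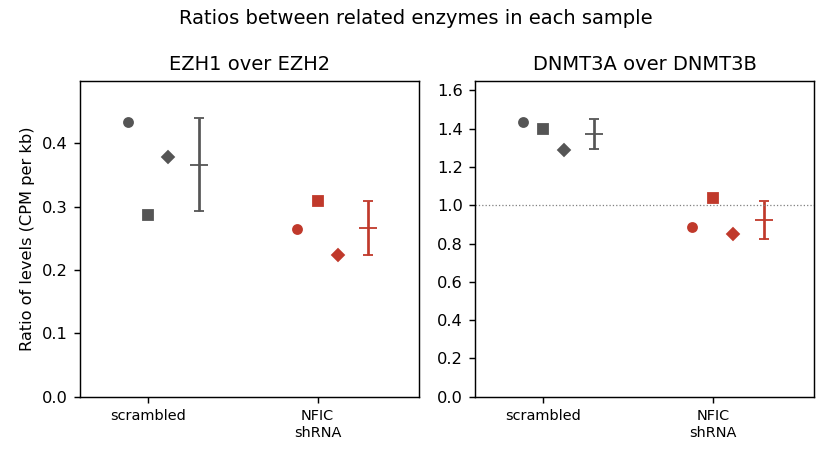
Ratio of EZH1 over EZH2 and of DNMT3A over DNMT3B (y axes, ratio of CPM per kilobase, starting at 0) in scrambled (grey) and NFIC shRNA samples (red); symbols are replicates, bars mean ± SD (n = 3) and the dotted line a ratio of 1. For DNMT3A over DNMT3B the groups do not overlap, and for EZH1 over EZH2 they do. The position of a ratio relative to the dotted line depends on the gene lengths used.

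S-phase genes, which are copied into mRNA as cells replicate their DNA, separated the replicates within both groups. Of 42 S-phase genes, a list without UHRF1, 41 were highest in C3 among the scrambled samples and in N3 among the NFIC shRNA samples. The mean deviation of the list from the group mean was 0.23 in C3 and 0.17 in N3 on the scale log2(CPM + 0.5). EZH2, EED, SUZ12, DNMT1 and UHRF1 were also highest in C3 and in N3 of their groups, by 0.13 and 0.13 for EZH2 and by 0.20 and 0.12 for UHRF1. EZH1 and TET3 were lowest in both. How many of all genes tested were highest in both C3 and N3 was not counted. Deviations of these samples correlated at 0.19 across all genes tested. C3 and N3 also had the highest total counts of their groups, 24809720 and 23226715. The summed level of the S-phase list was 2182, 2754 and 2194 CPM with scrambled shRNA, against 2631, 2524 and 3060 CPM with NFIC shRNA, so that the groups overlapped.

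With C3 and N3 both left out, 8 of the 10 genes were called, and 57.1% of all genes tested in that fit. EZH1 then had a log2 fold change of -0.22 (adjusted p = 0.0153 by edgeR) and UHRF1 of 0.16 (adjusted p = 0.0220), and the 6 genes called with all samples were called again in the same direction. Values of these were 0.27 for EZH2, 0.53 for EED, 0.13 for SUZ12, 0.20 for DNMT1, 0.42 for DNMT3B and 0.21 for TET2. With all 6 samples, 21 of the S-phase genes rose, 2 fell and 19 did not pass the test, with a median log2 fold change of 0.26. Also with all samples, 47 of the 54 G2/M-phase genes rose and 1 fell, with a median of 0.67. Of all genes tested, 29.6% were called higher and 30.3% lower. Without C3 and N3, 31 S-phase and 51 G2/M-phase genes were called. The part of these cell cycle genes in the changes of the 10 genes was not tested.

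The partners of the PRC2 core spread from -1.22 to 1.47 on the log2 scale, and the 4 core genes from -0.18 to 0.52. Of 9 tested, 5 rose, 2 fell and 2 did not pass, with a median log2 fold change of 0.25. Counts in this and the following lists stand beside 29.6% of all genes tested called higher and 30.3% called lower. LCOR, whose locus also encodes the PRC2-binding protein PALI1, rose, with 41.7 ± 3.28 CPM in scrambled against 115.6 ± 14.5 CPM in NFIC shRNA samples (mean ± SD, n = 3; log2 fold change 1.47, adjusted p = 1.59e-09 by edgeR). MTF2, a Polycomb-like protein that brings PRC2 to CpG islands, rose from 103 ± 8.93 to 166 ± 7.74 CPM (0.69, adjusted p = 5.61e-08). EPOP, which links PRC2 to elongin, fell from 13.4 ± 1.23 to 5.75 ± 0.804 CPM (-1.22, adjusted p = 1.81e-07). For all 3 genes the groups did not overlap.

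Genes of PRC1, the complex that ubiquitinates histone H2A, moved in both directions, as did all genes tested (29.6% higher and 30.3% lower). Of 23 genes tested, 7 rose, 10 fell and 6 did not pass, with a median log2 fold change of -0.14. PCGF3, a subunit of a variant PRC1, and CBX7, which reads the mark of PRC2, rose with log2 fold changes of 0.73 and 0.77 (adjusted p = 4.58e-08 and 4.04e-06 by edgeR). YAF2 rose by 0.57, whereas CBX8, another reader of the mark, fell by 0.63 on the log2 scale and SCMH1 by 0.41. Of 4 genes that remove Polycomb marks, the H2A deubiquitinase gene BAP1 and its partner ASXL2 rose with log2 fold changes of 0.27 and 0.18, and none fell by edgeR, DESeq2 or limma-trend. The lysine 27 demethylase gene KDM6B was at -0.19 (edgeR adjusted p = 0.0626), the 1 gene of the list that was lower at an unadjusted p under 0.05.

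Partners of maintenance methylation gave 0 higher, 3 lower and 4 not called of 7 tested by edgeR, with 0 higher and 3 lower also at an unadjusted p under 0.05, by DESeq2 and by limma-trend. PCNA, the sliding clamp that holds DNMT1 at replication forks, fell, with 96.1 ± 17.4 CPM in scrambled against 38.8 ± 2.24 CPM in NFIC shRNA samples (mean ± SD, n = 3; log2 fold change -1.31, adjusted p = 1.04e-06 by edgeR). CDCA7, the partner of the remodeler HELLS, fell by 1.01 and its relative CDCA7L by 1.04 on the log2 scale. PCNA is also in the S-phase list. Without scrambled replicate 2, 5 of the list were called, as without C3 and N3. The list also holds DNMT3L, a cofactor gene of the de novo enzymes and not of maintenance, which had at most 3 counts per sample and was not tested.

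In the list of partners of demethylation, which also holds the enzyme gene TET1, 3 of 7 rose and 3 fell. TET1, described above, is counted among those that fell. IDH1, which makes the 2-oxoglutarate that TET enzymes use, rose, with 147 ± 1.82 CPM in scrambled against 265 ± 19.3 CPM in NFIC shRNA samples (mean ± SD, n = 3; log2 fold change 0.86, adjusted p = 8.59e-10 by edgeR). Its relative IDH2 fell from 129 ± 14.9 to 101 ± 4.70 CPM, with no overlap (log2 fold change -0.34, adjusted p = 5.28e-04 by edgeR). The mismatch glycosylase gene MBD4 rose with a log2 fold change of 0.28. Of 7 genes listed from families that read methylated CpG, 3 rose and 2 fell. MBD1, which binds methylated DNA and recruits repressors, rose, with 98.8 ± 1.39 CPM in scrambled against 209 ± 7.83 CPM in NFIC shRNA samples (mean ± SD, n = 3; log2 fold change 1.08, adjusted p = 2.37e-11 by edgeR). MBD3, listed for its family and not as such a reader itself, fell by 0.21 on the log2 scale.

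Germline genes that DNA methylation commonly silences in somatic cells showed no shared rise. Of 12 present in the table, 6 passed the filter on low counts, of which MAGEB2 rose (log2 fold change 0.40) and HORMAD1, PRAME and TEX19 fell. HORMAD1 fell by 1.04 and PRAME by 0.59 on the log2 scale, and the median of the 6 genes was -0.66. TEX19 had 15, 30 and 14 counts with scrambled shRNA, against 1, 0 and 1 counts with NFIC shRNA. DNA methylation itself was not measured in these samples.

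**Figure D5:**
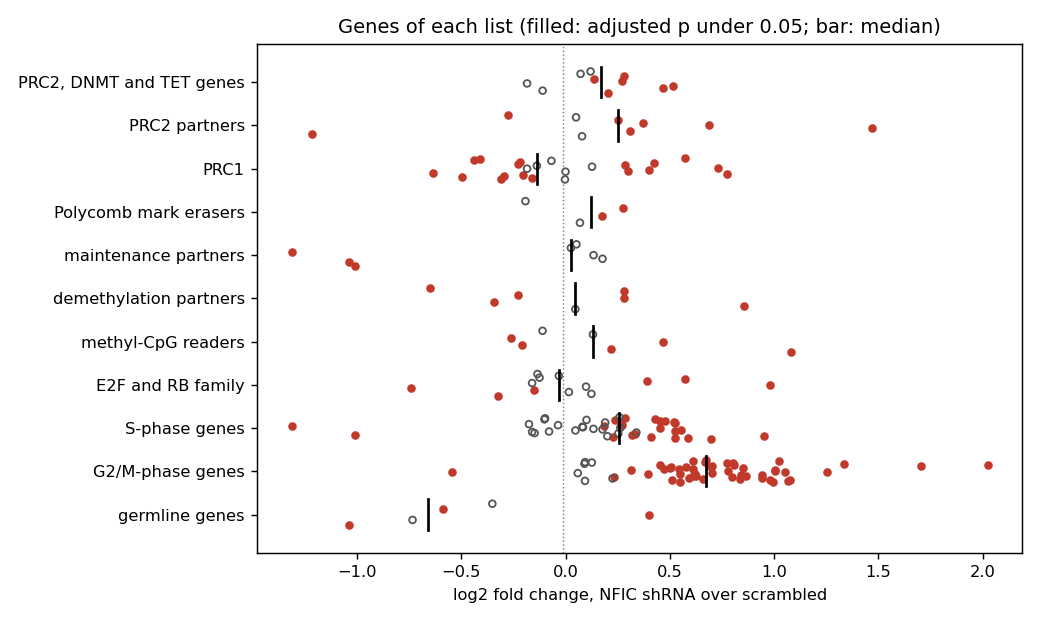
log2 fold change of NFIC shRNA over scrambled samples (x axis) for the tested genes of each list (rows); filled points have an adjusted p under 0.05, black bars are list medians and the dotted line the median of all genes tested. The 10 genes lie between -0.18 and 0.52, and the PRC2 partners between -1.22 and 1.47; TEX19, with 0 or 1 counts in each NFIC shRNA sample, is counted in its median and not drawn.

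Genes of the E2F and RB families moved in both directions, as did all genes tested (29.6% higher and 30.3% lower). Of 13 tested, 3 rose, 3 fell and 7 did not pass, with a median log2 fold change of -0.032. Of the E2F genes only E2F7 rose. The repressor gene E2F7 rose, with 14.5 ± 2.02 CPM in scrambled against 28.6 ± 2.78 CPM in NFIC shRNA samples (mean ± SD, n = 3; log2 fold change 0.98, adjusted p = 2.89e-07 by edgeR). The other genes that rose were the pocket protein genes RB1 and RBL1, with log2 fold changes of 0.39 and 0.57. Those that fell were E2F5, by 0.74 on the log2 scale, E2F1, by 0.33, and E2F4, by 0.15. Adjusted p from edgeR was 6.50e-04 for E2F1 and 0.0240 for E2F4.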

How the data were processed

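Bulk mRNA of 3 scrambled shRNA and 3 NFIC shRNA samples of THP-1 was measured. Per the study's methods and the submitters' processing notes, the authors trimmed reads with Trim Galore, aligned them with STAR to GRCh38 and counted them per gene of Ensembl release 96 with featureCounts. The versions of these tools and the strand and multi-mapping settings are not given in the sources used here. The authors deposited raw counts, a signal per gene (count over a DESeq2 size factor), FPKM made from it, and the gene length. Deposited columns of the authors' own comparison (log2 fold change, standard error and Wald score, p-value) were not used.

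Columns were assigned to samples by the name in the sample titles, and 0 per-sample columns were left unmapped. Counts were fitted with edgeR 4.0.16 in R 4.3.3 (TMM, filterByExpr, robust dispersion, quasi-likelihood test, no block) on all genes. p was adjusted over the 19182 genes tested. The standard error is the log2 fold change over the square root of F, and 95% intervals use the fit's degrees of freedom. CPM are scaled by TMM factors. No set test was run. Motifs were searched in RefSeq promoter windows, and 100-base words were matched over GENCODE release 44 transcripts on both strands. Gene positions are from that release on GRCh38. The main type of fit was tested on simulated data of 18905 genes, in which 98 changed by 0.5 and 95 by 1 on the log2 scale. Of these, 71.4% and 86.3% were called. Smaller changes, and a table in which most genes change, were not simulated.

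The 10 genes and the lists, written from general knowledge, were chosen with earlier results of these data known. Named genes are the 10 genes, NFIC, and in each list the genes called with an absolute log2 fold change above 0.5 and the 3 with the smallest p (for the cell cycle lists the 3 only). Outside this rule, SUZ12P1, AC112777.1, AC073046.1, S1PR2, CD3D, CD79B, LYZ, DNMT3L, E2F1, E2F4 and IDH2 were picked with their values in view. KDM6A, ASXL3 and EZHIP were not analysed here, and some genes of the lists are not reported here.

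Alternatives were DESeq2 size factors, upper-quartile factors or total counts for TMM, DESeq2 1.42.0, limma-trend 3.58.1, no filter, a minimum of 10 counts per sample, leaving out single samples, and 2 replicate blocks. Leaving out C3 with N3 and adding SUZ12P1 to SUZ12 were chosen after seeing the data. The replicate number of the labels, and the numbers in the titles, gave the blocks. By title, C1 was set with N1 and C3 with N3, and C4 with N2 was the pair left over, without a shared number. Neither pairing is stated to be a shared batch.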

Additional observations from a re-analysis of the deposited data

How the results depend on the processing

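Across the 17 alternatives to each fit, EZH2, EED, DNMT3B and TET2 kept their direction and call, and TET3 was called in none. Between 4 and 8 of the 10 genes were called when 1 sample was left out, and between 5 and 8 under the other settings. With upper-quartile normalization EZH1 was called at -0.24 and DNMT3A at -0.17, and SUZ12 was not, at 0.079 (log2 fold changes). With 1 sample left out, the change of SUZ12 ranged from 0.10 to 0.16, of DNMT1 from 0.15 to 0.26, of EZH1 from -0.28 to -0.11 and of UHRF1 from 0.026 to 0.22, and each crossed the threshold in at least 1 such fit. In these fits the genes called numbered 1 to 3 among those that remove Polycomb marks and 3 to 5 among the maintenance partners. Without C3 and N3, EZH1 was at -0.22 and UHRF1 at 0.16, both called, as were 5 maintenance partners. Adding SUZ12P1 to SUZ12 gave -0.0045 in place of 0.14. The cause of these changes was not tested, except that fewer samples or joined counts are what those settings consist of. A replicate block by the label number left SUZ12 at 0.14 with an adjusted p of 0.0543 (edgeR), and a block by the number in the titles called EZH1 at -0.18 and 5 maintenance partners. The calls in the whole table were 11486 without a block, 10983 with the label number and 12099 with the title number. Deviations from the group mean correlated across genes, between paired samples, at 0.066, -0.13 and -0.063 by label and 0.066, 0.19 and 0.042 by title. The last title pair, C4 with N2, was the pair left over and shares no number. Neither number was shown to pair the samples. The ratios did not change with FPKM or total counts, because sample scaling cancels within a sample, and with 1 sample left out they ranged from -0.62 to -0.32 for EZH1 over EZH2 and from -0.66 to -0.52 for DNMT3A over DNMT3B (log2 differences). With 3 samples per group, the 95% intervals of the 4 genes not called ran from -0.38 to 0.0075 for EZH1 and from -0.24 to 0.022 for DNMT3A. They ran from -0.078 to 0.32 for UHRF1 and from -0.037 to 0.18 for TET3. For each gene, changes within its own interval are compatible with these samples.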
